A study of Mus musculus with 2 samples.

Results

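The transcription factor genes that mark the cardiac fibroblast lineage were followed in cultured mouse cardiac myofibroblasts, in which the messenger RNA of Bcat1 had been lowered with a small interfering RNA. The set holds 10 genes of the 24532 in the count table, Tcf21, Tbx18, Tbx20, Tbx5, Gata4, Gata6, Wt1, Hand2, Meox1 and Twist1. Each was taken from the table by its gene symbol, and the genes were chosen with earlier results of these data known. C57BL/6 mice supplied the cells, which were isolated 3 days after an infarct of the heart and are the contractile, matrix-secreting form of the fibroblast. Both cultures received 12.5 nM of siRNA with the same transfection reagent and were kept for 72 hours. One received a control siRNA (siControl) and the other received 1 siRNA sequence against Bcat1 (siBcat1), which encodes the cytosolic aminotransferase of branched-chain amino acids. Each group is 1 library, with 127309329 counts in siControl and 104581819 in siBcat1, so no difference given here has a replicate check, and no test was made. The number of hearts or cultures behind each library is not stated in the labels.

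Cardiac fibroblasts descend mostly from the epicardium, the mesothelial sheet around the heart. Tcf21, Tbx18 and Wt1 mark that sheet in the embryo, and Tcf21 stays on in fibroblasts after birth, where it is widely used to label them. Tbx20, Tbx5, Gata4, Gata6 and Hand2 are best known as factors of heart muscle development, and they are also transcribed in fibroblasts of the heart, which sets these cells apart from fibroblasts of other organs. Twist1 acts in epithelial-to-mesenchymal transition, and Meox1 is a homeobox factor described in activated cardiac fibroblasts. By their DNA-binding domains, Tbx5, Tbx18 and Tbx20 are T-box proteins, Gata4 and Gata6 are GATA zinc finger proteins, Tcf21, Hand2 and Twist1 are basic helix-loop-helix proteins, Wt1 is a zinc finger protein and Meox1 a homeodomain protein.

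RefSeq promoter sequences (GRCm38.p6) were matched for 5 of the 10 genes, and the 250 bases before the annotated start are shown for 4 of them. Tbx20 and Twist1 are shown as the genes with the lowest and the highest log2 fold among those of at least 5 CPM, Tcf21 as the gene with the highest level, and Hand2 as the window with the most motif matches. Sequences run 5′ to 3′ on the strand of the gene, and capitals mark matches, on either strand, to an E-box (CANNTG), a GATA site (GATAA), a T-box half-site (AGGTGT), a homeobox site (TAATTA) or a TATA box (TATAAA).
Tbx20, chr9:24774304-24774553, minus strand: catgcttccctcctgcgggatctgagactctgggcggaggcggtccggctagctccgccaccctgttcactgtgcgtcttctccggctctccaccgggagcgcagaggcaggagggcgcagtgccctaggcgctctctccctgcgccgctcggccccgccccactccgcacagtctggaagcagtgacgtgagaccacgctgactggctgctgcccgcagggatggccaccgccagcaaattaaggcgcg
Twist1, chr12:33957421-33957670, plus strand: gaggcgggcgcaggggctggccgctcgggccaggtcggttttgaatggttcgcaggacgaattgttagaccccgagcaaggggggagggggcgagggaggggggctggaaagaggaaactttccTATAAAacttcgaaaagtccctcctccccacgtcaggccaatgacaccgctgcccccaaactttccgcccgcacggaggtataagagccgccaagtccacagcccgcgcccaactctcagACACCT
Tcf21, chr10:22820144-22820393, minus strand: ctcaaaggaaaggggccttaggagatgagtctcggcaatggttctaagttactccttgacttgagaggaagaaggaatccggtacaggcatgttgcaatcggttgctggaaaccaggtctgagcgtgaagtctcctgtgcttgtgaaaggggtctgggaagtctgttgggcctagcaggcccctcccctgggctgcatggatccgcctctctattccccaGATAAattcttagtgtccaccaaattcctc
Hand2, chr8:57320733-57320982, plus strand: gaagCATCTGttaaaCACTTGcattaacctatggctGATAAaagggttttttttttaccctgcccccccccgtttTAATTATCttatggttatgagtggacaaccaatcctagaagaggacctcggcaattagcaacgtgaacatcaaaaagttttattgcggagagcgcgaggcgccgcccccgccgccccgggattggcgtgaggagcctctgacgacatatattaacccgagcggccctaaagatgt

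The Tbx20 window held none of the 5 motifs and was the richest in G and C, at 68.8%, with 22 CpG dinucleotides. The Twist1 window held 1 T-box half-site and 1 TATA box at 62.4% G and C. Tcf21 had a single GATA site, 30 bases before its start. Hand2 held 2 E-boxes, 2 GATA sites and 1 homeobox site, and the homeobox site overlaps the second GATA site. In Tbx18, which is not printed, the window held 1 E-box. Over 32851 promoter windows of the same length, 66.2% held an E-box, 22.6% a GATA site, 11.8% a T-box half-site, 4.84% a homeobox site and 12.4% a TATA box, and the median G and C content was 52.4%. A match is a string of letters and not a bound site, and binding was not measured.

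The culture showed a fibroblast profile in both libraries. All 14 fibroblast markers and all 8 myofibroblast markers averaged 5 CPM or more (counts scaled to library size with TMM factors). Of 12 cardiomyocyte markers, 10 were at 0 counts in siControl and 9 in siBcat1, Myh6, Actn2, Ttn and Ryr2 among them, and Tnnt2 alone had more than a few counts, with 6091 and 1041. The targeted gene Bcat1 had 8891 counts in siControl and 99 in siBcat1. The background for the counts below is the 9935 genes that averaged 5 CPM or more: with siBcat1, 13.0% of them lay 2-fold or more below siControl and 5.58% lay 2-fold or more above. The folds of all genes followed transcript length, so each fold below also has a length-adjusted value, which is what remains after subtracting the trend of all genes on length. On that scale 5.33% of 9887 genes were at least 2-fold lower and 4.12% at least 2-fold higher.

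Of the 10 lineage factors, 7 averaged 5 CPM or more. Of these 7, Tbx20 alone was 2-fold or more lower with siBcat1, 6 lay within 2-fold, and no gene passed 2-fold in the upward direction, beside the shares of 13.0% and 5.58% for all genes. Under upper-quartile factors Tbx20 was at -0.99, just inside 2-fold. Length-adjusted, none of the 7 was 2-fold lower or higher, except Tbx20 at -1.34 when its shortest transcript was used. Their median log2 fold was -0.17, against -0.06 for all 9935 genes, and their length-adjusted median was -0.25, against 0.00. That last median moved to -0.11 with length and GC trends removed, to -0.088 with the longest transcripts, and to -0.086 at a minimum of 1 CPM, where all 10 genes enter. In bulk RNA, fewer cells that transcribe a gene and less of its RNA in each cell cannot be told apart.

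Levels between genes are compared in TPM, a unit that the authors scaled for both transcript length and library size. Tcf21 had the highest level of the set, with 219.6 TPM in siControl and 145 in siBcat1. That placed it above 95.2% and 93.6% of detected genes. It was also highest in both libraries among the 95 genes of the transcription factor lists used here, which include some cofactors and partners. Tbx20 followed with 174 and 59.0 TPM, and Gata4 with 95.04 and 45.6. Gata6 had 51.3 and 27.0, Twist1 44.0 and 42.3, Hand2 33.2 and 26.6, and Tbx18 32.7 and 20.5 TPM. A wide gap separated these from Wt1 with 2.53 and 1.14, Meox1 with 1.08 and 1.76, and Tbx5 with 0.688 and 0.417 TPM. The order of the set was nearly the same in both libraries: Twist1 passed Gata6, and Meox1 passed Wt1. With 1 library a group, which neighbours in this order differ beyond the spread between cultures was not tested. Tcf21 and Tbx20 together made up most of the summed level, with shares of 33.5% and 26.6% in siControl and 39.3% and 15.98% in siBcat1. Summed over the 10 genes, the level was 655 TPM in siControl and 369 in siBcat1. Differences in TPM between the libraries stand beside a median log2 fold of -0.47 for all genes tested on TPM, with a pseudocount of 1. In scaled counts the sum was 1045 CPM in siControl and 690.3 in siBcat1, and without Tbx20 it was 515 and 446 CPM. Tbx20 thus carried most of the difference in scaled counts, a unit that gives long transcripts more weight. In TPM it carried a smaller part, with 174 and 59.0 of the sums of 655 and 369.

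**Figure D1:**
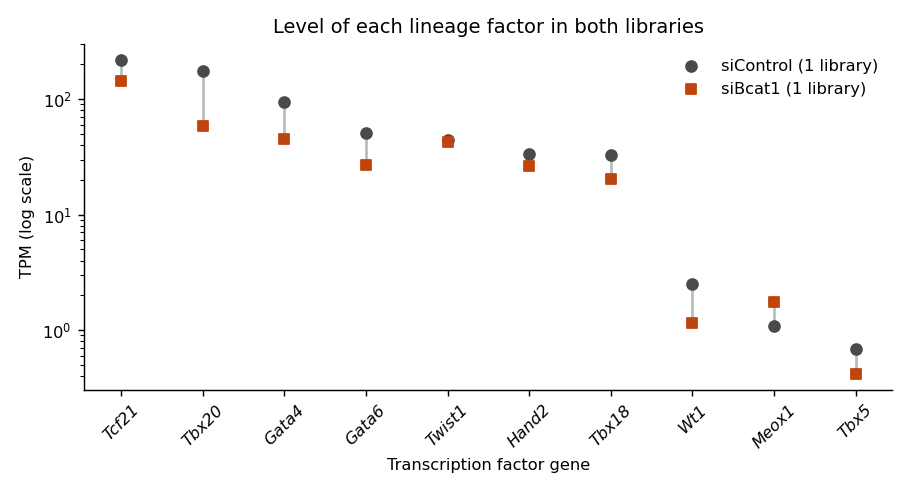
TPM of the 10 lineage factors on a log axis, with 1 circle for the siControl library and 1 square for the siBcat1 library, ordered by the siControl level. Tcf21 is highest in both, Tbx20 shows the widest gap among the genes above 20 TPM, from 174 to 59.0, Twist1 has 44.0 and 42.3, and Meox1 alone is higher in siBcat1 in this unit. In scaled counts Hand2 and Twist1 are higher too.

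The T-box genes differed among themselves. Tbx20 (chromosome 9, 24718138 to 24774303, minus strand, GRCm38), which keeps chamber muscle programmes active in cardiomyocytes, had 69562 counts in siControl and 24702 in siBcat1. Scaled to the libraries, these were 529 and 244 CPM, a log2 fold of -1.12 [-1.14 to -1.10], or 2.17-fold lower. Brackets give the exact 95% interval of counting error, which holds no spread between cultures and takes reads as independent. Of all genes tested, 10.5% had a lower log2 fold than Tbx20. Tbx18 (chromosome 9, 87702800 to 87731260, minus strand) encodes a transcriptional repressor found in the epicardium and the sinoatrial node. It had 9702 and 6636 counts, or 73.8 and 65.5 CPM, a log2 fold of -0.17 [-0.22 to -0.13]. Tbx5 (chromosome 5, 119832668 to 119885219, plus strand), the gene of Holt-Oram syndrome, lay under 5 CPM with 172 and 115 counts and a log2 fold of -0.21 [-0.56 to 0.14], an interval that spans 0. The ratio of Tbx20 to Tbx18 in TPM was 5.33 in siControl and 2.88 in siBcat1. This ratio does not depend on library scaling, and the log2 folds of the pair differed by -0.95 [-0.995 to -0.896].

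Tbx20 is also the only one of the 10 whose RefSeq transcripts differ much in length. Its 3 accessions matched a transcript of 9091 bases and one of 1801 bases, and their mean of 5446 bases gave a length-adjusted log2 fold of -0.49. Taking the longest transcript gave -0.09 and taking the shortest gave -1.34, so how far Tbx20 departs from genes of its length rests on which transcript the cells make. The deposited counts and TPM together imply a mean Tbx20 transcript of 6309 bases in siControl and 6049 in siBcat1. In the other 6 genes of at least 5 CPM the implied length was the same in both libraries to within 1 base. With the implied length, the length-adjusted value of Tbx20 was -0.38.

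Both GATA genes had lower values with siBcat1. Gata4 (chromosome 14, 63198922 to 63271692, minus strand), a zinc finger activator of cardiac genes, had 20510 and 10758 counts, or 156 and 106 CPM, a log2 fold of -0.56 [-0.59 to -0.52]. Gata6 (chromosome 18, 11052064 to 11085635, plus strand), its closest relative in the heart, had 10390 and 5988 counts, or 79.1 and 59.1 CPM, a log2 fold of -0.42 [-0.47 to -0.37]. These genes have transcripts of similar length, 3387 and 3234 bases, and their length-adjusted values were -0.34 and -0.25. Genes were also ranked by length and put in 10 bins of nearly equal size, and the 988 genes of the bin that holds both had a median log2 fold of -0.14. The ratio of Gata4 to Gata6 in TPM was 1.85 in siControl and 1.68 in siBcat1, and their log2 folds differed by -0.14 [-0.19 to -0.08]. Both stayed below 0 in each of 8 alternative settings, of which the minima of 1 and 20 CPM cannot change the fold of a single gene. With TPM and a pseudocount of 1 they had -1.04 and -0.90, where the median of the 8811 genes of at least 5 TPM was -0.47.

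Of the basic helix-loop-helix genes, Tcf21 lay near the middle of all genes on the scale of counts, above 48.5% of them, Hand2 above 62.9% and Twist1 above 76.2%. Tcf21 (chromosome 10, 22817281 to 22820174, minus strand), the fibroblast lineage factor, had 17069 and 12326 counts, or 129.9 and 122 CPM, a log2 fold of -0.09 [-0.13 to -0.06]. Its sign turned to 0.03 under upper-quartile factors and it was -0.60 with TPM and a pseudocount of 1. Hand2 (chromosome 8, 57320983 to 57324633, plus strand), a factor of right ventricle and limb development, had 4704 and 4114 counts, or 35.8 and 40.6 CPM, a log2 fold of 0.18 [0.12 to 0.24], which was -0.31 with TPM. Twist1 (chromosome 12, 33957671 to 33959829, plus strand) had 4548 and 4777 counts, or 34.6 and 47.2 CPM, a log2 fold of 0.45 [0.39 to 0.51], which was -0.06 with TPM. With TPM and a pseudocount of 1, the median of the 8811 genes that averaged 5 TPM or more is itself -0.47. On counts the median of the 9935 genes of at least 5 CPM is -0.06. Hand2 and Twist1 thus changed sign between units but lay above the median of the genes tested in both. Relative to Tcf21 within each library, Twist1 was higher with siBcat1, with TPM ratios of 0.201 and 0.292 and a difference in log2 fold of 0.54 [0.47 to 0.61].

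Tcf21 and Twist1 differed although their transcripts are of similar length. At 1267 and 1628 bases, both fall in the same length bin, where the median log2 fold was 0.46 and 10.95% of genes were at least 2-fold higher. Twist1 lay on that level, with a length-adjusted log2 fold of 0.08, and Tcf21 lay below it, with -0.63. The value for Tcf21 was the lowest length-adjusted value of the 7 genes, and 12.6% of all genes had a lower one. Tbx20 was lower than Tcf21 when its shortest transcript was used, at -1.34, and when a GC trend was removed too, at -0.71. Over the 8 alternative settings of the length adjustment, the value of Tcf21 ranged from -0.65 to -0.55. Hand2, at 2351 bases, had 0.10.

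**Figure D2:**
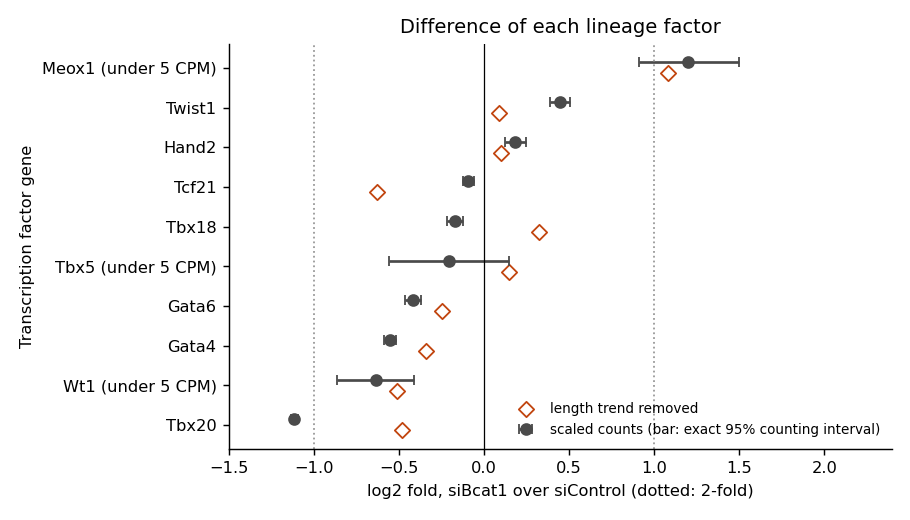
Log2 fold of siBcat1 over siControl for each lineage factor, with filled circles for scaled counts, bars for the exact 95% counting interval, and open diamonds for the length-adjusted value. Tbx20 lies beyond the 2-fold line on counts and inside it after adjustment, at -1.12 and -0.49, while Tcf21 goes from -0.09 to -0.63 and Tbx18 from -0.17 to 0.32.

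Wt1 and Meox1, like Tbx5, lay below 5 CPM but were well above the floor of 3 counts. Wt1 (chromosome 2, 105126529 to 105173616, plus strand), the Wilms tumour factor that marks the epicardium, had 495 counts in siControl and 245 in siBcat1, or 3.77 and 2.42 CPM. Its log2 fold was -0.64 [-0.87 to -0.42] and its length-adjusted value -0.51. Meox1 (chromosome 11, 101877510 to 101894374, minus strand) had 152 and 269 counts, or 1.16 and 2.66 CPM, a log2 fold of 1.20 [0.907 to 1.496], or 2.30-fold higher. Its length-adjusted value was 1.08. Its log2 fold was above 0 in each of 8 alternative settings, and was 0.40 with TPM and a pseudocount of 1. Of these settings, the minima of 1 and 20 CPM cannot change the fold of a single gene. Meox1 was the only one of the 10 with a higher TPM in siBcat1. At a minimum of 1 CPM it is the only one at least 2-fold higher, beside 820 of all 11804 genes at that minimum.

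Across the 7 genes of at least 5 CPM, longer transcripts went with lower log2 folds, with Spearman's rho at -0.79 and Pearson's r at -0.73 against log2 length. Over all 10 genes rho was -0.68 and r was -0.60. These points are genes of the same pair of libraries and give a description only. The trend of all genes at the members' lengths ran from 0.54 for Tcf21 to -0.63 for Tbx20. Tbx18, at 4679 bases, lay above it, with a length-adjusted value of 0.32, and Tbx5, at 3942 bases, had 0.14. In the length bin that holds Tbx20, 28.1% of genes were at least 2-fold lower.

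**Figure D3:**
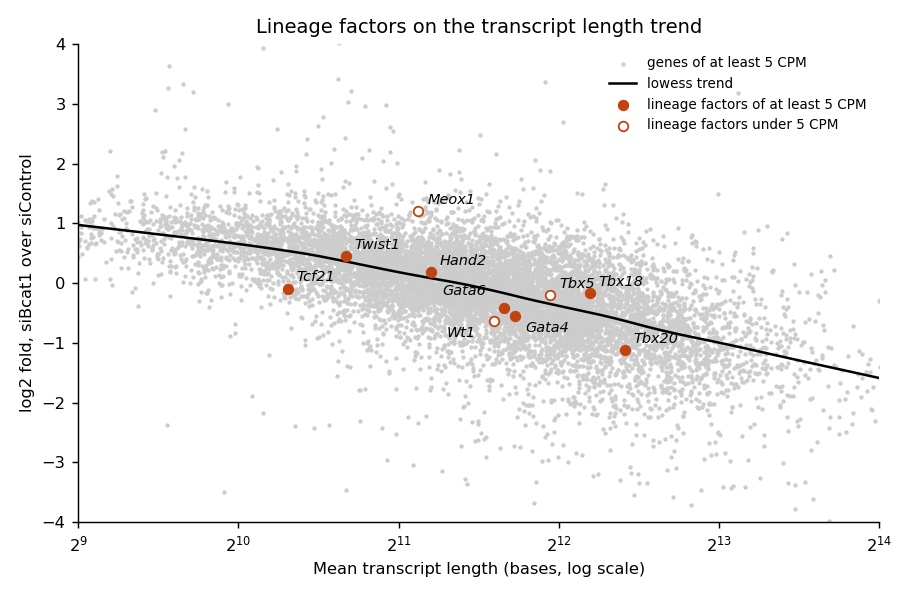
Log2 fold against mean transcript length, both on log scales, for genes of at least 5 CPM in grey, with the lowess trend in black and the lineage factors in red, filled at or above 5 CPM and open below it. Twist1 and Hand2 sit on the trend, Tcf21, Gata4, Gata6, Wt1 and Tbx20 below it, and Tbx18, Tbx5 and Meox1 above it. The axes leave out genes beyond the limits shown.

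A different scaling of counts moves every gene by the same amount. Apart from the pseudocount, the change of unit also moves genes of equal implied length in both libraries by nearly the same amount. At a pseudocount of 0.1, Hand2 went from 0.18 to -0.32 and Twist1 from 0.45 to -0.06. Tbx20, whose implied length differed between the libraries, moved less, from -1.12 to -1.56. Under upper-quartile factors the median of all genes shifted by 0.13, Tbx20 had -0.99 and Tbx18 -0.04. With TPM and a pseudocount of 1, the genes tested were the 8811 that averaged 5 TPM or more. The median of the genes tested shifted by -0.41, which holds both the change of unit and that of the genes. With TPM, 9 of the 10 lineage factors were below 0, Meox1 being the exception. The median of the 8811 genes was itself -0.47 at a pseudocount of 1. Hand2, Twist1 and Tbx5 lay below 0 but above that median, with -0.31, -0.06 and -0.25. The pseudocount of 1 holds low genes near 0, so Tbx5 and Wt1 had -0.25 and -0.72 with it and -0.61 and -1.08 with a pseudocount of 0.1. Tbx20 had the lowest value of the 7 genes of at least 5 CPM in each of these settings.

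**Figure D4:**
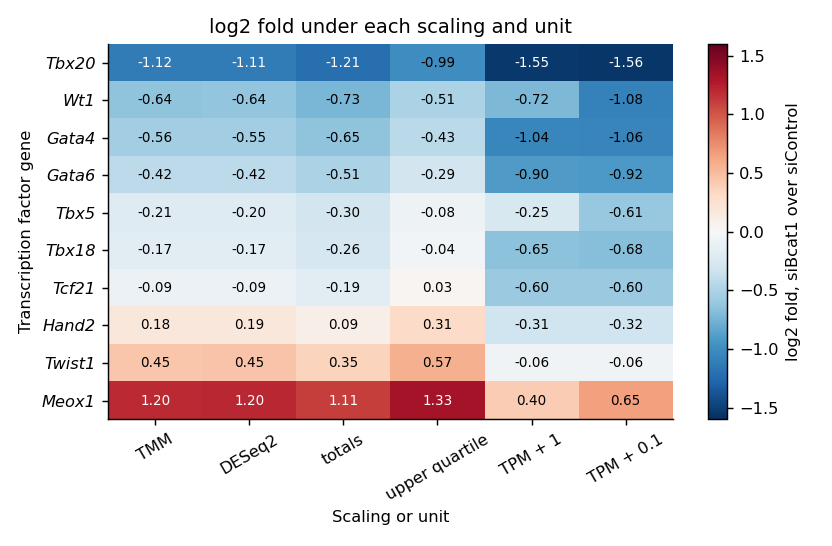
Log2 fold of each lineage factor, in rows, under 4 scalings of counts and with TPM at pseudocounts of 1 and 0.1, in columns, with the value printed in each cell. Tbx20 runs from -0.99 to -1.56 and Meox1 from 1.33 to 0.40, while Tcf21, Hand2 and Twist1 change sign between columns.

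Antisense genes lie beside several members, and the sources used here do not say whether counting used strand. The antisense gene Hand2os1, also known as Upperhand, covers 3251 bases of the Hand2 locus in GENCODE M21. It had 122 counts in siControl and 214 in siBcat1 in the count table, against 4704 and 4114 for Hand2, a log2 fold of 1.19 [0.86 to 1.52] and a length-adjusted value of 0.22. The antisense gene of Gata6, 1010001N08Rik, overlaps it by 504 bases and had 81 and 98 counts and a log2 fold at 0.65 [0.21 to 1.09] (length-adjusted -0.21). Wt1os had 2 and 0 counts, too few for a fold. In GENCODE, antisense or opposite-strand models also overlap Tcf21 over its whole 2894 bases, Tbx18 over 1976 bases and Meox1 over 4970 bases, and these models are not analysed here. Reads of an antisense gene and of its partner cannot be told apart without strand.

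Most T-box relatives of the members were under 5 CPM, and the GATA relatives and cofactors lay on both sides of that level. Counts past 2-fold in these small lists and the next stand beside 13.0% lower and 5.58% higher for all genes of at least 5 CPM. Of 13 other T-box family genes, 5 were at 0 in both libraries and 1, Mga, had a mean of at least 5 CPM, with a log2 fold of -1.40 [-1.49 to -1.31]. Mga has a very long transcript, and its length-adjusted value was 0.03. Of 7 GATA relatives and cofactors, 4 passed 5 CPM and none differed 2-fold. Among these 4, Zfpm2, the FOG2 cofactor that binds GATA4, had -0.17 (length-adjusted 0.37), Zfpm1 had -0.58 (-0.37), Gata2 had -0.47 (-0.21) and Trps1, a repressor at GATA sites, had -0.63 (0.18).

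The E proteins, which pair with Tcf21, Hand2 and Twist1 to bind E-boxes, had values from -1.12 to -0.14. Tcf12 went from 106 to 48.5 CPM, a log2 fold of -1.12 [-1.17 to -1.07] and a length-adjusted value of -0.72. Tcf4 had -0.78 (length-adjusted -0.03) and Tcf3 had -0.14 (-0.07). Twist2, the close paralog of Twist1, had 0.38 [0.30 to 0.47] beside 0.45 for Twist1, a length-adjusted value of -0.13, and -0.12 with TPM. In that list of 11 genes, 4 passed 5 CPM and 1, Tcf12, was at least 2-fold lower.

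In the list of Meox1 and Wt1 relatives, 5 of 9 passed 5 CPM, with 1 at least 2-fold lower and none 2-fold higher. Egr3, of the zinc finger family closest to Wt1, had 1441 and 301 counts and a log2 fold at -1.88 [-2.07 to -1.70] (length-adjusted -1.86), and Egr1 had 0.93 [0.86 to 1.01] (1.05). Wtap and Wtip, which encode partners of the WT1 protein and not relatives of it, had 0.92 (0.90) and 0.28 (0.07), and both were below 0 with TPM, at -0.07 and -0.22.

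Other mesenchymal and fibroblast factors gave the widest company. Of 33 genes, 22 passed 5 CPM. Of these, 4 were at least 2-fold lower and none 2-fold higher, beside 13.0% and 5.58% of all genes. The 22 had a median log2 fold of -0.50 and a length-adjusted median of 0.00. Zeb2, a repressor in epithelial-to-mesenchymal transition, went from 93.4 to 20.2 CPM, a log2 fold of -2.21 [-2.28 to -2.14] (length-adjusted -1.69). Ebf1 had -1.24 (-0.86), Klf4 -1.10 (-0.99) and Runx1 -1.09 (-0.68). Length-adjusted, Zeb2 and Creb3l1 were at least 2-fold lower, with -1.69 and -1.01, and Nr2f1 and Foxc1 at least 2-fold higher, with 1.15 and 1.02. Of all genes, 5.33% were 2-fold lower and 4.12% 2-fold higher on that scale. Creb3l1, Nr2f1 and Foxc1 were named after their values were seen. In log2 CPM of both libraries, the nearest of 40 other genes of these lists was Snai1 for Tcf21, at a distance of 0.53, and for Gata4, at 0.47. For Tbx20 it was Prrx1, at 0.79. These distances rest on 2 libraries.

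Among cardiomyocyte factors, 4 of 12 passed 5 CPM and 1 was at least 2-fold lower. Mef2c, which together with Gata4 and Tbx5 reprograms fibroblasts toward heart muscle when supplied, had 1709 counts in siControl and 135 in siBcat1. Its log2 fold was -3.29 [-3.55 to -3.03] and its length-adjusted value -3.27, beside -0.34 for Gata4 and 0.14 for Tbx5. Mef2d had -0.78 (length-adjusted -0.68), Mef2a -0.64 (-0.21) and Srf -0.32 (-0.33).

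**Figure D5:**
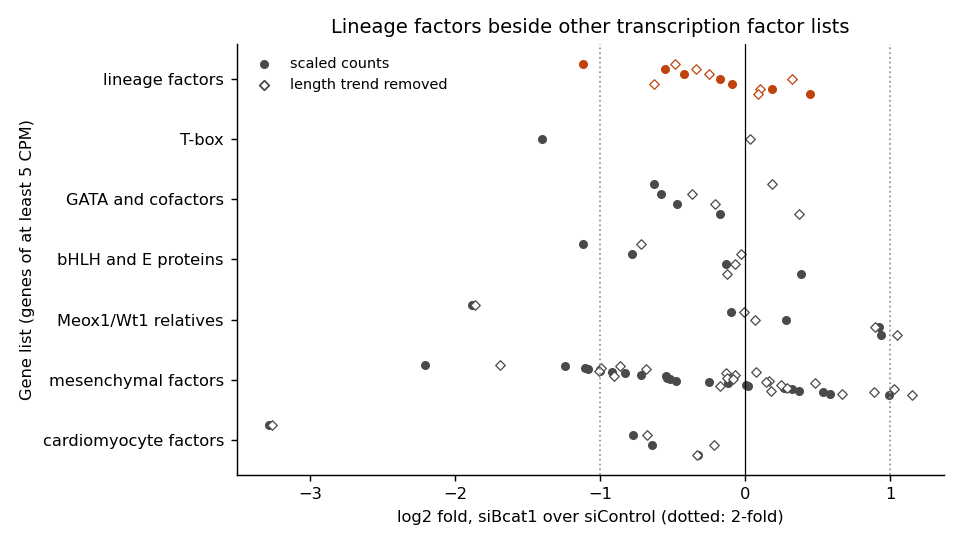
Log2 fold of each gene of at least 5 CPM in the lineage set (red) and in 6 other transcription factor lists (grey), with filled circles for scaled counts and open diamonds for length-adjusted values. The lineage factors span -1.12 to 0.45, inside the span of the mesenchymal factors, -2.21 to 0.99, and Mef2c at -3.29 is the lowest point.

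Genes known from other work as targets of the members went both ways. Of 16, 6 passed 5 CPM and 2 were at least 2-fold lower, the PDGF receptor gene Pdgfrb with -1.47 (length-adjusted -0.85) and the matrix gene Postn with -1.19 (-1.04). Cdh2, which encodes N-cadherin and is activated by Twist1 in other cells, had -0.54 (-0.02). Aldh1a2, the retinoic acid synthesis gene under Wt1 in the epicardium, had 10652 and 12923 counts and a log2 fold at 0.65 [0.62 to 0.69] (0.55). Length-adjusted, Postn was the only target at least 2-fold lower, and Nes, named after its value was seen, the only one higher, with 1.03. Nppa, Myh6, Bmp10 and Nphs1 were at 0 counts in both libraries. The muscle targets Gja5, Nppb and Tnni3 were barely counted, with 17 and 15, 11 and 3, and 5 and 0 counts. A count of 0 allows up to 3 counts, or 0.0228 CPM in siControl and 0.0296 CPM in siBcat1.

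Markers of fibroblasts and of other cell types differed between the libraries, and their part in the members' values was not tested. The 14 fibroblast markers summed to 36412 CPM in siControl and 24572 in siBcat1, with a median log2 fold of -0.39. Among them Col1a1 and Col1a2, the chains of type I collagen, were at least 2-fold lower, with -1.35 and -1.28, and S100a4 was at least 2-fold higher, with 1.31. The 8 myofibroblast markers summed to 20227 and 10230.4 CPM, with a median of -0.42, and Fn1 (fibronectin) at -2.02 and Postn at -1.19 were at least 2-fold lower. Length-adjusted, Col1a1, Col1a2 and S100a4 were within 2-fold, with -0.63, -0.67 and 0.32, and Fn1 had -1.06. These fibroblast and myofibroblast genes were named after their values were seen. The 11 measured epicardial and mesothelial markers summed to 213 CPM in siControl and 166 in siBcat1. Of the 4 that passed 5 CPM, Lrrn4, Sema3d and Upk3b were at least 2-fold lower, from 11.4 to 1.14, from 84.7 to 17.9 and from 17.7 to 3.998 CPM, and Aldh1a2 was the exception. Of those under 5 CPM, Krt19 went the other way, from 1.42 to 7.56 CPM, a log2 fold of 2.42 (length-adjusted 2.03). Krt18 had 0.21, and Upk1b, Msln, Bnc1, Krt8 and Gpm6a were lower. These values stand beside those of Wt1, -0.64, and Tbx18, -0.17. The 8 smooth muscle and pericyte markers summed to 246 and 60.8 CPM, mostly in Mcam and Notch3. The 10 endothelial markers summed to 55.8 and 61.5 CPM, mostly in Tek, with 33.9 and 32.0 CPM. The 11 macrophage markers summed to 10.3 and 28.8 CPM, mostly in Lyz2, with 5.46 and 21.3 CPM. Cd68 and Cd14 were higher with siBcat1 too, Csf1r had 2.82 and 2.69 CPM, and Ptprc, Adgre1, C1qa, C1qc and Fcgr1 were at 0 in both. The 12 cardiomyocyte markers summed to 46.4 and 10.4 CPM, nearly all of it Tnnt2. The 5 Schwann cell markers summed to 7.77 and 3.55 CPM. The 6 lymphocyte markers summed to 0.0152 and 0 CPM, and 5 of 6 lymphocyte markers were at 0 in both libraries.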

How the data were processed

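RNA sequencing of 2 libraries, siControl and siBcat1, was used, with groups taken from the treatment label. The counts are whole reads per gene, not normalized, in the authors' deposited table. A second deposited table holds TPM, which the authors computed, as its header names the unit. FastQC, Trimmomatic, HISAT2, StringTie and mm10 are named without versions per the submitters' processing notes, while the sources used here do not give the counter, its strand setting or its annotation.

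Counts were scaled with TMM factors from edgeR 4.0.16 (R 4.3.3), 1.03 for siControl and 0.969 for siBcat1. No test was made, because each group has 1 library. Log2 folds set scaled counts of siBcat1 over those of siControl, with an exact (Clopper-Pearson) 95% interval for counting error only. The 9935 genes averaging 5 CPM or more form the background, and 2-fold is the rule of size. Genes of the set below 5 CPM are given but not counted. A count of 0 allows up to 3 counts, and no fold was given below that floor.

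Length adjustment subtracted a lowess curve (fraction 0.3, 3 iterations, statsmodels 0.14.6) of log2 fold on log2 length. RefSeq accessions were matched to transcripts of GENCODE M21 (GRCm38), and the mean length per gene was available for 9887 genes. Of the variance of the folds, 37.9% followed the curve. Intervals of differences between the folds of a pair use the normal approximation for counts. The calculations were tested on simulated data. The genes, lists and rules were chosen with earlier results of these data known. Named genes were Bcat1, the 10 genes, their antisense partners, up to 4 genes with the largest absolute log2 fold at 5 CPM or more in each of 8 other lists, and, for the 3 genes with the largest absolute length-adjusted fold, the listed factor nearest in log2 CPM. Markers are given as sums over each of 9 lists. The scaling was also done by library totals, by upper quartiles and by the size factors of DESeq2 1.42.0. Further alternatives were TPM with pseudocounts of 1 and 0.1, minimum CPM of 1, 20 or none, thresholds of 1.5-fold and 3-fold or a whole interval past 2-fold, and other lengths and lowess fractions. With TPM the minimum of 5 was put on mean TPM, not on CPM.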

Additional observations from a re-analysis of the deposited data

How the results depend on the processing

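Of the 7 genes of at least 5 CPM, the number at least 2-fold lower on counts was 1, and it was 0 under upper-quartile factors, 0 at 3-fold, and 2 with TPM at either pseudocount. The number at least 2-fold higher was 0, and it was 1 at a minimum of 1 CPM and with no minimum, where Meox1 enters. The median log2 fold of -0.17 was -0.26 with library totals, -0.045 with upper-quartile factors, -0.65 with TPM and a pseudocount of 1, and -0.68 with a pseudocount of 0.1. Length-adjusted, the number lower was 0, and it was 1 at 1.5-fold and 1 with the shortest matched transcript; the number higher was 0, and it was 1 at a minimum of 1 CPM. The length-adjusted median of -0.25 was -0.086 at a minimum of 1 CPM, where 10 genes enter, -0.11 with length and GC trends removed, and -0.088 with the longest matched transcript. The longest and shortest transcripts were chosen as alternatives after seeing the data.

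The number of genes tested changed with the setting. At least 2-fold lower and higher were 1018 and 823 of 9938 genes under upper-quartile factors, and 1499 and 390 of 9946 with library totals. With TPM, 1971 and 112 of 8811 genes were so at a pseudocount of 1, and 2211 and 120 of 8811 at 0.1. At a minimum of 1 CPM the numbers were 1596 and 820 of 11804, at 20 CPM 752 and 352 of 6644, and with no minimum 3086 and 2084 of 16044. At 1.5-fold they were 2544 and 1750 of 9935, and at 3-fold 452 and 94 of 9935. For length-adjusted values, the shares over all genes are given only for the main setting, so the member counts in other settings have none beside them. No paired analysis was possible because each group has 1 library, and no library could be left out for the same reason. Depth limits Tbx5, Meox1 and Wt1, which have 115 to 495 counts a library, and the antisense genes; for the other 7 genes the missing replicates, not depth, limit what can be said.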

Other observations

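Several listed factors below 5 CPM differed more than 2-fold between the libraries, and those given here were picked after their values were seen. Differences of this size were common at low counts. With no minimum, 3086 genes were at least 2-fold lower and 2084 higher of 16044, beside 1292 and 554 of the 9935 genes of at least 5 CPM. Tcf24, a basic helix-loop-helix gene, was counted 207 times in siControl and 14 times in siBcat1, and its log2 fold was -3.51 [-4.41 to -2.73]. Msc, which encodes musculin, the closest relative of Tcf21, had 320 and 95 counts and a log2 fold at -1.38 [-1.72 to -1.04] (length-adjusted -1.69), beside -0.09 (-0.63) for Tcf21. Gata3 had 207 and 362 counts and a log2 fold at 1.18 [0.93 to 1.44], beside -0.56 for Gata4. Gata5 had 51 and 12 counts and a log2 fold at -1.71 [-2.75 to -0.78]. Pax3, a paired-box gene, had 175 and 45 counts and a log2 fold at -1.58 [-2.09 to -1.10]. Nkx2-5, the cardiac homeobox gene, had 38 and 71 counts and a log2 fold at 1.28 [0.69 to 1.89], and Myocd, the smooth muscle coactivator, had 64 and 8 counts and a log2 fold at -2.62 [-3.90 to -1.56]. These intervals cover counting error only.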
